A study of Mus musculus with 8 samples.

Results

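The genes described here are 10 genes of 2 neighbouring imprinted domains at the distal end of mouse chromosome 7: H19 and Igf2 of the first domain, and Cdkn1c, Kcnq1ot1, Kcnq1, Phlda2, Slc22a18, Nap1l4, Tssc4 and Cd81 of the second. They were chosen by name for their place in these domains, with earlier results of these data known. The gene lists set beside them were also chosen with those results known. All 10 genes were found among the 23100 genes of the deposited count table. They were measured by RNA sequencing in Min6 cells, a mouse insulinoma line that keeps many properties of pancreatic beta cells, after transfection by lipofection with pRK5-Zac1 (Zac1 group) or with pRK5-NLSeGFP, which expresses a nuclear green fluorescent protein (control group). Zac1, a DNA-binding zinc finger protein, is the product of Plagl1, itself an imprinted gene. RNA for stranded mRNA libraries was taken 16 h after transfection from 4 cultures per group, numbered 1, 2, 3 and 5 in each, which the submitters call biological replicates. Both groups come from 1 cell line under transient transfection, the share of cells that took up plasmid is not given in the sources used here, and a bulk value cannot part more expressing cells from more RNA per cell.

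An imprinted gene is transcribed mainly from the copy inherited from 1 parent. In the H19 and Igf2 domain, a control region that lies between the genes carries DNA methylation on the paternal copy; the maternal copy binds the insulator protein CTCF and transcribes H19, a noncoding RNA, while the paternal copy transcribes Igf2, the fetal insulin-like growth factor II. In the Kcnq1 domain, the long noncoding RNA Kcnq1ot1 starts inside Kcnq1 on the paternal copy and silences nearby genes such as Cdkn1c, Phlda2 and Slc22a18 in cis. Loss of imprinting in the matching human region is known from the overgrowth disorder Beckwith-Wiedemann syndrome, which can include excess insulin secretion.

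H19 carries the finding of this comparison, and its transcript is the precursor of the microRNA miR-675. The hairpin and its mature products are shown because they lie in the exonic sequence to which the H19 reads belong: the 84-base hairpin occupies positions 997 to 1080 of the 2286-base transcript H19-202 of the GENCODE M21 annotation, and it was found in 3 of the 7 annotated H19 transcripts, H19-202, H19-205 and H19-206. In the RefSeq hairpin (GRCm38.p6, chr7:142577064-142577147, minus strand) the capitals mark the mature arms, and in the mature sequences they mark the seed, bases 2 to 8. The 2 arms have different seeds.
miR-675 hairpin: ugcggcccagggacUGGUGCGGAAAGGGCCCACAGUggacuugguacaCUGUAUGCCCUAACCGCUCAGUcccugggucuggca
mmu-miR-675-5p: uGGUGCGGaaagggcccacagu
mmu-miR-675-3p: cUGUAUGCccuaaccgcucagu
The table has a separate entry, Mir675, which held 0 counts in all 8 libraries. Libraries of mRNA of this kind do not measure mature microRNAs. Reads that fall on the hairpin inside H19 overlap both entries, and how the counting assigned such reads is not given in the sources used here. The 0 of Mir675 is therefore no measure of miR-675.

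Igf2, which did not pass the test, is shown beside H19 by the sequence before its most downstream start site in RefSeq (GRCm38.p6, chr7:142657497-142657746, minus strand, 250 bases). Zac1 is known to bind GC-rich DNA, so the core GGGGCC was searched on both strands (GGCCCC on the other), and its match is in capitals.
Igf2 promoter: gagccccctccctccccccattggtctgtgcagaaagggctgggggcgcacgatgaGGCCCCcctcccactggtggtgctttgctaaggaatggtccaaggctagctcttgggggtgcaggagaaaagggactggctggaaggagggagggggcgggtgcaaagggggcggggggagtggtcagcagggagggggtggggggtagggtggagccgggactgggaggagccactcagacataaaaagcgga
In windows of 300 bases (250 before and 50 after the start), the core was present in 25.0% of 32851 RefSeq promoters. It was found in 2 of the 4 Igf2 windows and in the Cd81 window, which held 2 matches, and these letters were not in the single windows of Kcnq1ot1, Phlda2, Slc22a18 and Tssc4. The longer palindrome GGGGCCCC, which contains the core on both strands, was present in 1.08% of all promoters and in 0 of the windows of these genes. A match is a description of the sequence and not evidence of binding. Of the 10 genes, 6 had an entry in the RefSeq promoter table.

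The 8 libraries held 30548923 to 42446737 counts. Levels are given as CPM (counts-per-million) with library totals scaled by TMM, as mean ± SD over n = 4 libraries per group. Plagl1, which checks the labels, ran from 67.7 to 85.4 CPM in the controls and from 4117 to 5786 CPM in the Zac1 libraries, plasmid and endogenous transcripts together. Of 14331 genes with enough counts to test, 313 (2.18%) passed edgeR's quasi-likelihood test at an adjusted p of 0.05, 308 of them higher and 5 lower with Zac1. All 17 beta cell markers on the list were tested and 0 passed, with 0 at an unadjusted p under 0.05. Their summed level was 62310 to 79360 CPM in the controls and 64890 to 72910 CPM with Zac1. Of 18 other islet and exocrine pancreas genes 6 were tested and 0 passed, and of 18 interferon response genes 15 were tested and 0 passed, with 0 and 1 at an unadjusted p under 0.05. The 1 was Cxcl10, at 0.731 to 2.22 CPM in the controls and 2.92 to 8.99 CPM with Zac1. Its log2 fold change was 2.33 ± 0.49 (edgeR adjusted p = 0.0699), without overlap between groups, as for 5.79% of all tested genes.

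Among the 10 domain genes, 1 passed the test. H19 was absent from the counts of all 4 controls and present in all 4 Zac1 libraries, while the fitted folds of Igf2, Kcnq1ot1, Nap1l4, Tssc4 and Cd81, the 5 better expressed genes, ran from 0.922 to 1.03 and did not pass the test. Of the 10 genes 8 were tested, 1 (H19) was higher past the threshold and 0 were lower, against 2.15% and 0.0349% of all tested genes, and at an unadjusted p under 0.05 the count was also 1. H19 passed the filter on low counts only through the Zac1 libraries, so once tested it had to differ. The median log2 fold change of the 7 other tested genes was -0.01, beside -0.01 for all tested genes. Phlda2 and Slc22a18 had too few counts to be tested.

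H19 was read 0 times in each control library. In the Zac1 libraries it was counted 58, 72, 82 and 62 times (replicates 1, 2, 3 and 5), or 1.39, 2.04, 1.98 and 1.47 CPM. The groups did not overlap, and within the Zac1 group replicates 2 and 3 were the higher ones. The mean was 1.72 ± 0.339 CPM (edgeR adjusted p = 5.16e-06). The pooled Zac1 level of 1.70 CPM was 74.8-fold the 0.0228 CPM that a floor of 3 counts over the whole control group allows. This fold leaves out the counting error of the Zac1 libraries. On the log2(CPM + 0.1) scale the exact permutation p (two-sided) was 0.0286, the smallest that 70 assignments of 8 libraries can give. H19 passed the filter only through its Zac1 libraries, so the edgeR p lends no support. The permutation p only restates that the groups did not overlap. The Zac1 library with the most Plagl1 (replicate 1, 5786 CPM) was the one with the least H19, and the library with the least Plagl1 (replicate 3, 4117 CPM) had 1.98 CPM of H19. With 4 libraries no relation between these levels can be tested. H19 stayed a scarce transcript after its rise, with 0.0904 to 0.135 H19 counts per 100 Igf2 counts of the same library.

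**Figure D1:**
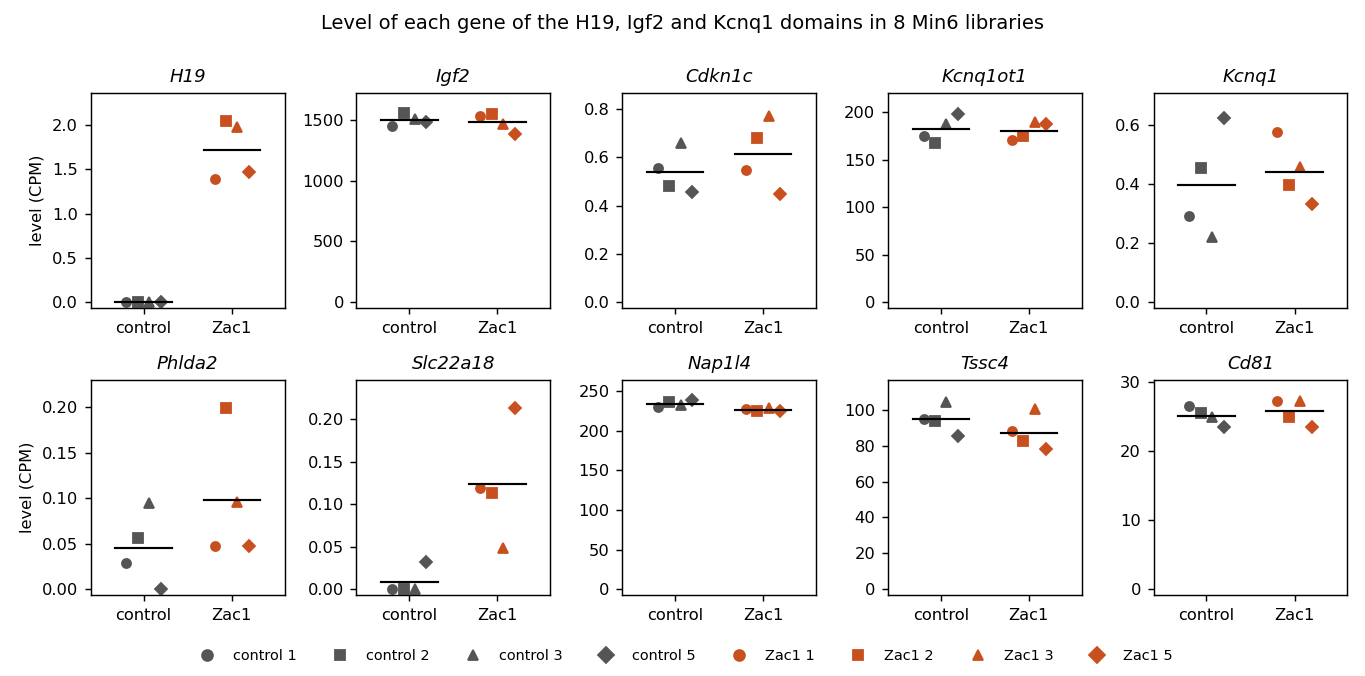
Level in CPM (vertical axis, from 0, a separate scale for each gene) of the 10 domain genes in the 4 control (grey) and 4 Zac1 (orange) libraries; marker shape gives the replicate number and the black line the group mean. H19 is at 0 in each control and at 1.39 to 2.04 CPM with Zac1, while the points of Igf2 and Kcnq1ot1 overlap between groups.

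Igf2, the growth factor that shares its control region and enhancers with H19, was among the most abundant transcripts of these cells, rank 32 of 23100 by mean CPM and 0.138% to 0.157% of all counts in a library. The controls held 1448, 1553, 1504 and 1482 CPM (replicates 1, 2, 3 and 5) and the Zac1 libraries 1534, 1548, 1465 and 1381 CPM. The groups overlapped, with the highest value in control replicate 2 and the lowest in Zac1 replicate 5. The means were 1497 ± 44.1 and 1482 ± 76.3 CPM, a log2 fold change of -0.01 ± 0.05 (SE; edgeR adjusted p = 0.984), and the 95% interval of the fold ran from 0.918 to 1.07. The exact permutation test gave p = 0.743 (two-sided). The sign of this small difference turned without Zac1 replicate 5 (0.02) and without control replicate 2 (0.01).

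The transcripts annotated at Igf2 and the gene beside it did not pass the test either. Igf2as, a noncoding transcript of the opposite strand, had 42.8 to 56.0 CPM in the controls and 53.5 to 59.3 CPM with Zac1, overlapping ranges with a log2 fold change of 0.12 ± 0.07 (edgeR adjusted p = 0.824). Igf2as and Igf2 share 98 exonic bases in GENCODE M21, and the strand setting of the counting is not given in the sources used here, so reads there are not assigned with certainty. Mir483, in an Igf2 intron, had 5 to 10 counts in a control library and 7 to 10 in a Zac1 library and was not tested. There were 2.96 to 3.78 Igf2as counts per 100 Igf2 counts in the controls and 3.49 to 4.05 with Zac1. Ins2, the insulin gene next to Igf2, took 3.06% to 4.53% of all counts in the controls and 3.47% to 4.08% with Zac1 (log2 fold change -0.12 ± 0.11, edgeR adjusted p = 0.938).

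Kcnq1ot1, the RNA that silences the second domain in cis, was readily detected. The controls held 175, 167, 188 and 198 CPM and the Zac1 libraries 171, 175, 189 and 188 CPM, in overlapping ranges. The log2 fold change was -0.01 ± 0.06 (edgeR adjusted p = 0.987), with a 95% interval of the fold from 0.910 to 1.08. Its sign turned without control replicate 5 (0.04) and in 3 other fits that left out 1 library. Kcnq1, the potassium channel gene in which Kcnq1ot1 starts, was close to silent, with 10, 16, 7 and 19 counts in the controls and 24, 14, 19 and 14 with Zac1. That is 0.397 ± 0.179 against 0.440 ± 0.103 CPM, a log2 fold change of 0.16 ± 0.34 (edgeR adjusted p = 0.977), and the interval of the fold, 0.674 to 1.84, is wide. The sign turned without control replicate 3 (-0.03) and without Zac1 replicate 1 (-0.000842). Kcnq1 shares 121 exonic bases with the opposite-strand Kcnq1ot1 in GENCODE M21, so its few reads may not all be its own.

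Cdkn1c, Phlda2 and Slc22a18, which Kcnq1ot1 is known to silence on the paternal copy, were each below 1 CPM in all 8 libraries. Cdkn1c, the cell cycle inhibitor p57, had 19, 17, 21 and 14 counts in the controls and 23, 24, 32 and 19 with Zac1. Its level was 0.539 ± 0.0903 against 0.613 ± 0.142 CPM, with overlapping groups, a log2 fold change of 0.18 ± 0.26 (edgeR adjusted p = 0.963) and an interval of the fold from 0.771 to 1.66. Changes within that interval remain compatible with these counts, and the interval is not a limit of detection at this depth. Phlda2, a pleckstrin homology protein that restrains placental growth, had 1, 2, 3 and 0 counts in the controls and 2, 7, 4 and 2 with Zac1, a ratio of 2.05 with a 95% counting interval of 0.751 to 6.44.

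Slc22a18, an organic cation transporter-like membrane protein, had 1 count in all 4 controls together, in replicate 5, and 5, 4, 2 and 9 counts with Zac1. Every Zac1 library was above every control, at 0.0482 to 0.213 against 0 to 0.0327 CPM. The ratio of summed counts was 16.4, with a counting interval of 2.62 to 679. In the edgeR fit without a filter on low counts, which tested 19900 genes, it did not pass (adjusted p = 0.0942), nor did Phlda2 (adjusted p = 0.886). The level reached with Zac1 was near that of 3 counts, 0.0709 to 0.0981 CPM in a single library.

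The outer genes of the second domain, which are imprinted weakly or only in placenta, did not pass the test. Nap1l4, a nucleosome assembly histone chaperone, had 229.5, 235, 232 and 239 CPM in the controls and 227, 225, 229 and 225 CPM with Zac1. All 4 Zac1 values were below all 4 controls, and 5.79% of tested genes had groups without overlap in 1 direction or the other. The shift was a log2 fold change of -0.05 ± 0.04 with an interval of the fold from 0.910 to 1.03 (edgeR adjusted p = 0.928). Tssc4, which takes part in assembly of the splicing machinery, had 94.8, 93.8, 104 and 85.2 CPM in the controls and 87.8, 82.5, 100 and 78.1 CPM with Zac1 (log2 fold change -0.12 ± 0.08, edgeR adjusted p = 0.862). Replicate 3 was the highest and replicate 5 the lowest in both groups, and the groups overlapped. Cd81, a tetraspanin of the cell surface, had 26.5, 25.5, 25.0 and 23.6 CPM in the controls and 27.3, 25.0, 27.3 and 23.5 CPM with Zac1, overlapping ranges with a log2 fold change of 0.04 ± 0.07 (edgeR adjusted p = 0.973). Tssc4 shares 220 exonic bases with Trpm5 on the opposite strand.

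**Figure D2:**
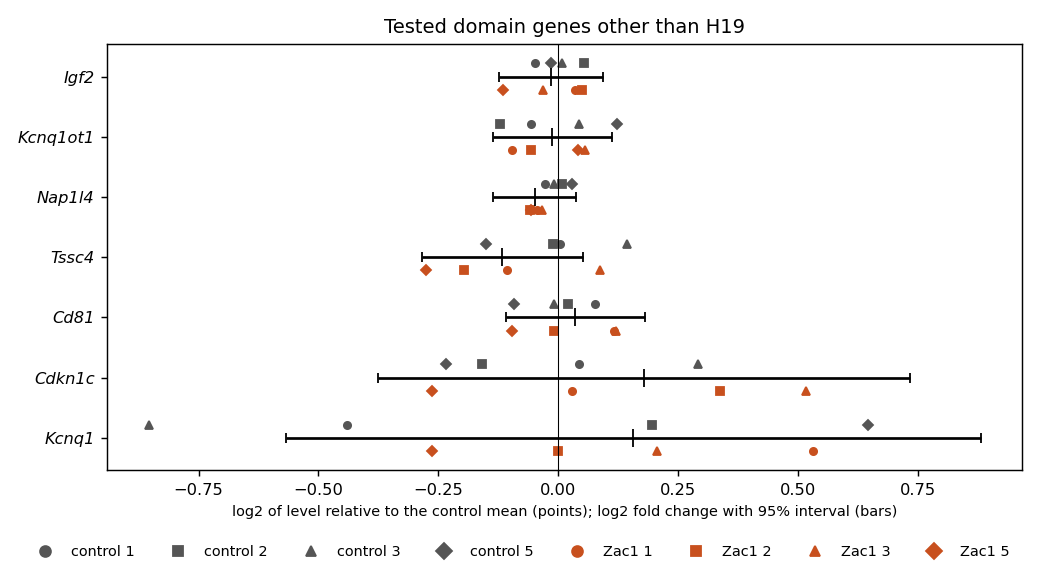
For the 7 tested domain genes other than H19, points show the log2 of each library's CPM relative to the control mean (grey control above, orange Zac1 below, shape by replicate), and the black bar the edgeR log2 fold change with its 95% interval. The bars of Igf2, Kcnq1ot1, Nap1l4, Tssc4 and Cd81 are narrow around 0, and those of Cdkn1c and Kcnq1, with few counts, are wide.

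The spread between replicates differed among the genes and did not follow their counts. The coefficient of variation over the controls was 1.68% for Nap1l4, 2.94% for Igf2, 4.82% for Cd81, 7.51% for Kcnq1ot1 and 8.33% for Tssc4. Counting alone gives 1.14%, 0.45%, 3.47%, 1.29% and 1.79% at these depths, so Igf2, Kcnq1ot1 and Tssc4 varied between cultures well beyond counting. For Cdkn1c the observed 16.7% was below the 23.7% of counting.

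Per length of exon (CPM per kb of merged GENCODE M21 exons), the control levels ran from Igf2 at 261.5 ± 7.69 through Nap1l4 at 75.6 ± 1.28, Tssc4 at 51.2 ± 4.26, Cd81 at 8.73 ± 0.421, Kcnq1ot1 at 1.96 ± 0.147 and Cdkn1c at 0.264 ± 0.0443 to Kcnq1 at 0.0970 ± 0.0437. Each of these stood apart from the next over the 4 controls. Phlda2 (0 to 0.0840 CPM per kb) overlapped Kcnq1 (0.0537 to 0.152), and it also overlapped Slc22a18 (0 to 0.0193) and H19 (0). With Zac1, H19 stood at 0.698 ± 0.138 CPM per kb (0.563 to 0.830), above Cdkn1c (0.220 to 0.378) and below Kcnq1ot1 (1.83 to 2.04). Kcnq1ot1 has 93.1 kb of exon in this annotation and Nap1l4 has 3.09 kb, so their similar CPM, 182 and 234 in the controls, stand for unlike levels per length.

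Of a list of neighbouring genes across the same stretch of chromosome, 21 were in the table and 15 were tested. One, Lsp1, was higher and 0 were lower, against 2.15% and 0.0349% of all tested genes, and the median log2 fold change was 0.00. Lsp1, an actin-binding protein of leukocytes, lies on the Ctsd side of H19, with Tnnt3, Mrpl23 and Nctc1 between them. It had 0, 2, 0 and 0 counts in the controls and 71, 52, 51 and 51 with Zac1 (edgeR adjusted p = 3.37e-06), a ratio of 92.2 with a counting interval of 25.2 to 766. Tnni2, the fast skeletal muscle troponin I next to Lsp1, had 0 counts in all controls and 11, 8, 18 and 12 with Zac1. Its pooled Zac1 level was 13.4-fold the same floor of 3 counts. That fold leaves out the counting error of the Zac1 libraries, as for H19. Tnni2 fell below the filter, and it passed in the fit without one (adjusted p = 0.000283). Both genes, like H19, had no overlap between groups, and Lsp1 also passed the filter only through the Zac1 libraries.

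Genes that lie among these did not pass the test or had too few counts for it. Mrpl23, a mitochondrial ribosomal protein gene between Tnnt3 and H19, had 36.8 CPM in the controls and 36.9 CPM with Zac1 on average (log2 fold change 0.00 ± 0.05). Nctc1, a noncoding RNA gene next to H19, had 0 counts in the controls and 0, 0, 1 and 7 with Zac1, with 7 of the 8 counts in replicate 5. Syt8 had 6 counts with Zac1 and 2 without, and Tnnt3 4 and 1. Ctsd, the lysosomal protease at the near end, differed by a log2 of -0.02 ± 0.05.

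On the far side of Igf2, the neurotransmitter enzyme gene Th (-0.10 ± 0.11, log2) and the cation channel gene Trpm5 (0.05 ± 0.08) did not pass the test. Beyond Nap1l4 the same was true of Cars (-0.08 ± 0.05), Tnfrsf26 (-0.05 ± 0.12), Tnfrsf22 (0.01 ± 0.15), Tnfrsf23 (0.02 ± 0.08), Osbpl5 (0.14 ± 0.10), Mrgpre (-0.05 ± 0.06), Nadsyn1 (0.01 ± 0.08) and Dhcr7 (-0.08 ± 0.06). Their edgeR adjusted p values, with those of Th, Trpm5, Ctsd and Mrpl23, ran from 0.770 to 0.997.

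When every gene of the table from Ctsd to Dhcr7 was taken in RefSeq order, a stretch chosen after values were seen, 37 of the 50 RefSeq genes were present and 24 were tested. H19 and Lsp1 were the 2 that passed, and 0 were lower. Of the 37 genes 12 had at most 2 counts over the 4 controls. In 5 of these 12 (41.7%) every Zac1 library was above every control: Tnni2, Lsp1, H19, Tspan32 and Slc22a18. Over the whole table this held for 97 of 5444 such genes (1.78%). The 5444 include every gene with 0 counts in all 8 libraries, for which this could not hold. Only 19900 of the 23100 genes in the table had any count. Among the 12, Mir675 was without counts, so the 2 shares do not have a like base. The Zac1 libraries were the deeper ones on average, and the stretch was picked for its genes, so these shares are a description with no test. Tspan32, a tetraspanin of blood cells, had 0, 0, 1 and 0 counts in the controls and 2, 3, 4 and 4 with Zac1, and it did not pass in the fit without a filter (adjusted p = 0.307).

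**Figure D3:**
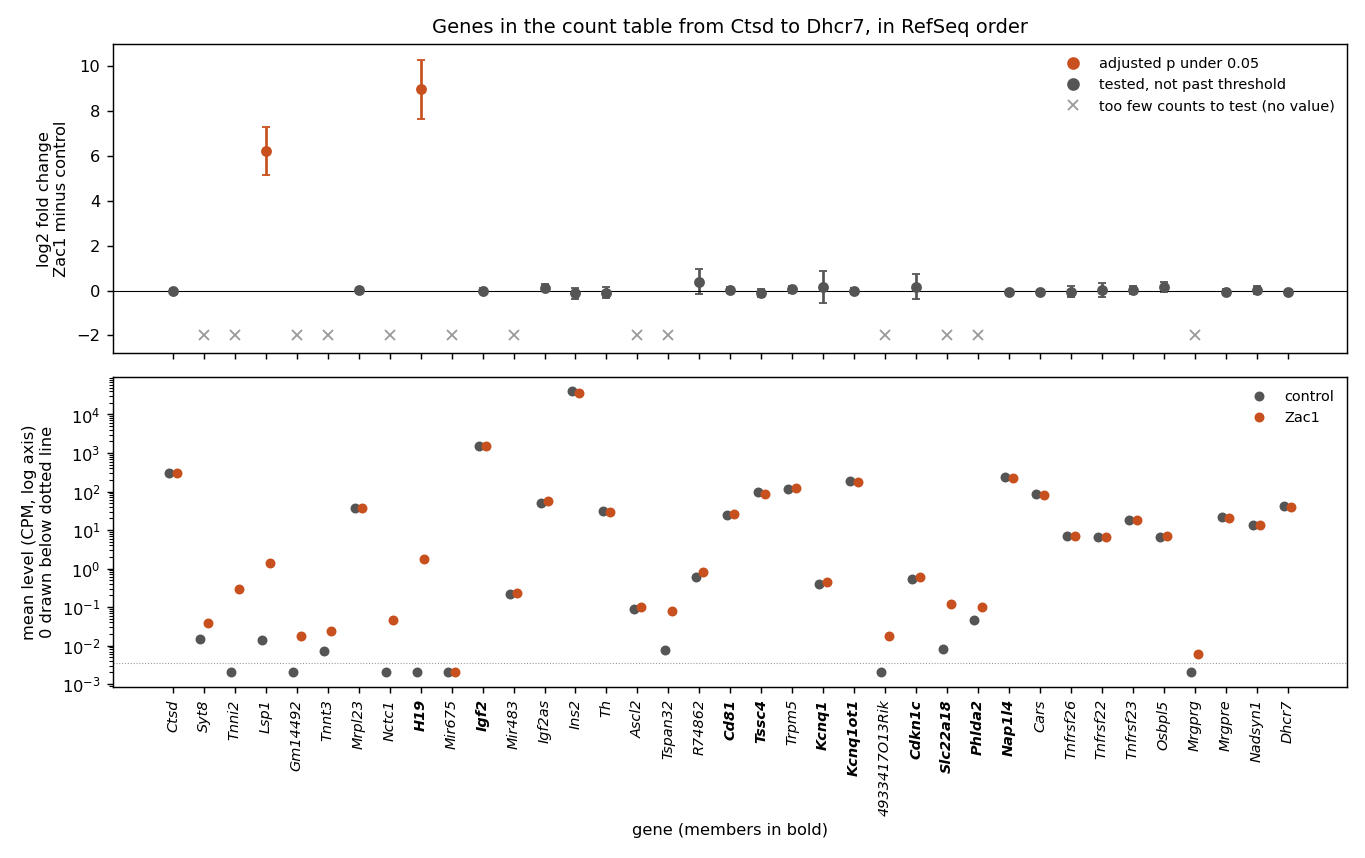
Genes of the count table from Ctsd to Dhcr7 in RefSeq order (horizontal axis, equal steps and not distance; domain genes in bold). The upper panel gives the edgeR log2 fold change with its 95% interval, which for H19 and Lsp1 depends on the prior count and is no measure of fold; the lower panel gives the group means in CPM on a log axis, with 0 drawn below the dotted line. H19 and Lsp1 stand away from 0 and the other tested genes, among them Mrpl23 between them and Igf2 beside H19, lie near it.

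**Figure D4:**
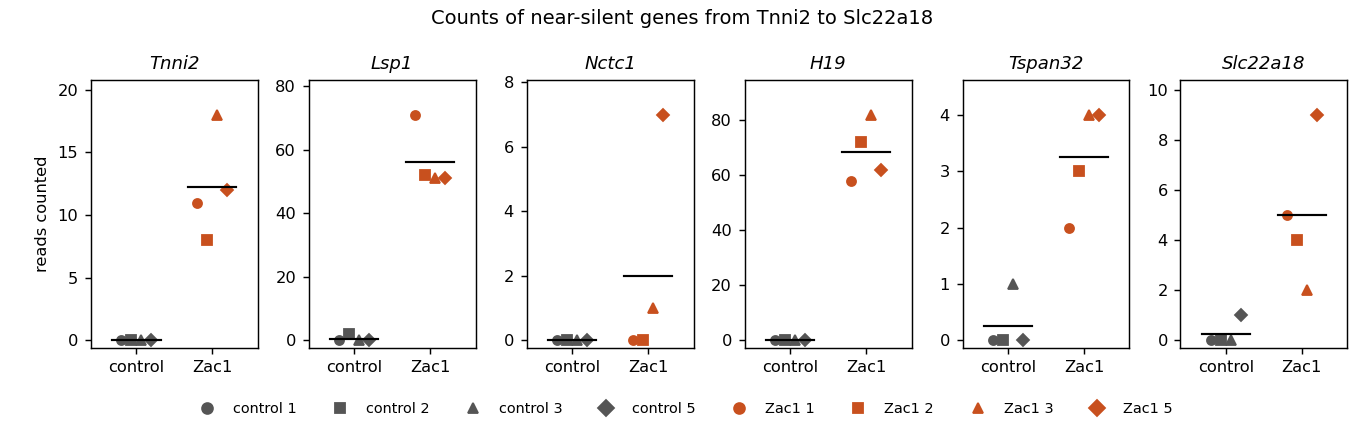
Reads counted (vertical axis, from 0, a separate scale for each gene) for 6 genes with at most 2 control counts, in the 4 control (grey) and 4 Zac1 (orange) libraries; shape gives the replicate and the black line the mean. Lsp1 and H19 reach 51 to 82 counts with Zac1 and Tnni2 reaches 8 to 18, while the counts of Nctc1, Tspan32 and Slc22a18 stay below 10.

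The IGF axis list covers the receptors, binding proteins and signal carriers through which the Igf2 protein acts. Of 24 genes 18 were tested, 1 was higher and 0 were lower, against 2.15% and 0.0349% of all tested genes, and the median log2 fold change was 0.02. The gene that rose was Igf2bp2, whose protein binds Igf2 mRNA and regulates its translation. It had 27, 21, 19 and 23 counts in the controls and 73, 57, 46 and 71 with Zac1, from 0.684 ± 0.102 to 1.54 ± 0.291 CPM (log2 fold change 1.17 ± 0.22, edgeR adjusted p = 0.00636). Its relatives Igf2bp1 and Igf2bp3 had at most 5 counts in a library. The receptor genes had small shifts that did not pass the test, without overlap between groups as for 5.79% of all tested genes: Insr went from 54.0 to 58.9 CPM in the controls to 59.5 to 66.5 CPM with Zac1 (log2 fold change 0.15 ± 0.05, edgeR adjusted p = 0.346), and Igf1r differed by 0.10 ± 0.04 (edgeR adjusted p = 0.521). Insr passed in 1 of 16 alternative fits, the edgeR fit with replicate number as a block (adjusted p = 0.047). The clearance receptor Igf2r differed by 0.03 ± 0.05.

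The list of factors that keep imprints or silence genes in the Kcnq1 domain had 22 of 26 genes tested. Of these, 0 were called by edgeR, DESeq2 or limma-voom, against 2.18% of all tested genes by edgeR. At an unadjusted p under 0.05 there were also 0, beside 810 higher and 277 lower among all 14331 tested genes. In a list of this size 0 calls is near the share over all genes and is no result about these factors. The median log2 fold change was -0.01, and the values ran from -0.14 to 0.12. Ctcf, the insulator protein of the H19 control region, had 154 ± 4.49 CPM in the controls and 152 ± 4.16 CPM with Zac1. The 3 genes with the smallest p were Ehmt2, a histone H3 lysine methyltransferase (log2 fold change -0.09 ± 0.06), Dnmt3b, a de novo DNA methyltransferase (0.12 ± 0.09), and Eed, a Polycomb subunit (-0.05 ± 0.05). The maintenance methyltransferase gene Dnmt1 differed by a log2 of 0.02 ± 0.05, and the Polycomb enzyme gene Ezh2 by -0.02 ± 0.05. Zfp57, which protects imprints in early embryos, had at most 6 counts in a library.

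Partners of the proteins that the domain genes encode made up a further list of 30 genes in the table, 22 of them tested, with 1 higher and 0 lower, against 2.15% and 0.0349% of all tested genes (median log2 fold change 0.03). Ptgfrn, an immunoglobulin protein that binds Cd81 in the membrane, had 1, 0, 2 and 0 counts in the controls and 47, 22, 25 and 32 with Zac1 (edgeR adjusted p = 9.73e-05), a ratio of 34.4 with a counting interval of 11.5 to 169. It too passed the filter only through the Zac1 libraries. Ccnd1, the cyclin D1 that Cdkn1c-type inhibitors restrain, had 3, 2, 8 and 0 counts in the controls and 20, 12, 14 and 31 with Zac1 and missed the threshold (log2 fold change 2.23 ± 0.55, edgeR adjusted p = 0.0541), and it passed in 6 of 16 alternative fits, among them DESeq2 (adjusted p = 0.0212), limma-voom (adjusted p = 0.0464) and edgeR without control replicate 3 (adjusted p = 0.0162), with a range of adjusted p from 0.0127 to 0.196. It was tested only because of its Zac1 libraries, like Ptgfrn, so these tests lend no support. Cdkn1a, the related inhibitor p21, had 98.9 to 104 CPM in the controls and 110 to 117.5 CPM with Zac1, without overlap. Its log2 fold change of 0.15 ± 0.04 did not pass (edgeR adjusted p = 0.167). Cdkn1a passed in 1 of 16 alternative fits, the edgeR fit with replicate number as a block (adjusted p = 0.0264). Of the accessory subunits of the Kcnq1 channel, Kcne1, Kcne2, Kcne3 and Kcne4 each had at most 6 counts in any library.

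Genes with a pattern like that of H19 were sought by a fixed rule: 0 counts in every control and at least 10 in every Zac1 library. Of 3974 genes with no control count, 8 met it, and H19 had the highest Zac1 level of them. Among the others were Clic6, Tbx10, Upk2, Gpihbp1, Ccdc102a and Aqp6, at 0.333 to 1.09 CPM with Zac1. For Igf2, the closest of 2385 candidate genes by mean absolute difference of the centred log2 CPM profile over 8 libraries were Psmd11 (0.0194), Csnk1d (0.0215) and Stx16 (0.0218), where the median candidate was at 0.0757. These profiles share the libraries and their depth, and nothing further is read from the likeness.

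H19 and Tnni2 are known from skeletal muscle and Lsp1 from blood cells, so markers of those lineages are given beside them. Of 13 fibroblast and muscle genes 4 were tested and 2 were higher, where 2.15% of all tested genes were; too few were tested to read a share. The summed level of the 13 was 2.05 to 2.68 CPM in the controls and 3.31 to 5.47 CPM with Zac1. The rise in the sum lay mainly in Des (mean 0.0430 to 1.58 CPM) and Col1a1 (0.334 to 1.04 CPM). The other tested genes, Col1a2 (0.698 to 0.734 CPM) and Thy1 (1.09 to 0.834 CPM), had no such rise. Des, the muscle intermediate filament desmin, had 2, 4, 0 and 0 counts in the controls and 76, 58, 76 and 44 with Zac1 (edgeR adjusted p = 1.66e-05), and it passed the filter only through the Zac1 libraries, so once tested it had to differ. Col1a1 rose by a log2 of 1.62 ± 0.31 (edgeR adjusted p = 0.00766). The muscle regulator Myog had 0 counts in the controls and 6, 2, 11 and 4 with Zac1, and Myod1 0 and then 1, 0, 2 and 0. Acta2, Col3a1 and Dcn had at most 5 counts in any library, Lum was at 0 in every library, and Thy1 and Col1a2 did not pass the test. Pdgfra had 1, 3, 1 and 1 counts in the controls and 4 in each Zac1 library. Pdgfrb had 2 counts in all controls together and 14 with Zac1, and Twist1 had 5 and 10. Pdgfra, Pdgfrb and Twist1 had too few counts to be tested. Of 10 endothelial and blood cell markers 2 were tested and 0 passed, with 0 at an unadjusted p under 0.05, and the endothelial marker Cdh5 and the globin gene Hbb-b1 were at 0 in every library. The leukocyte marker Ptprc had 5 to 9 counts in a control library and 2 to 11 in a Zac1 library, and the macrophage marker Cd68 had 173 to 204 and 147 to 279 counts. Pecam1, of endothelial and blood cells, had 38 to 48 and 40 to 69 counts. Their summed level was 7.22 to 8.41 CPM in the controls and 6.61 to 9.15 CPM with Zac1. The part of the muscle and fibroblast genes in the H19, Lsp1 and Tnni2 results was not tested.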

How the data were processed

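The deposited table gives raw read counts per gene, as the authors made them, with 1 column for each of 8 libraries, each matched by name to 1 sample title. Per the submitters' processing notes, HTSeq 0.6.1p1, Bowtie2 2.2.8, TopHat2 2.1.1, FastQC and bcl2fastq 2.17 were used, with build mm9; annotation, strand setting and filters were not stated there.

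Counts were analysed with edgeR 4.0.16 in R 4.3.3: filterByExpr by group (14331 genes kept), TMM scaling, a robust quasi-likelihood fit on group and Benjamini-Hochberg adjustment over all tested genes, threshold 0.05. SE and 95% intervals come from the F statistic. Replicates differed beyond counting noise (chi-square per degree of freedom 8.906 to 29.84), and p-values measure the spread between these cultures. Counting intervals are exact binomial ones and cover counting error only. The steps were tested on simulated data. Alternatives were DESeq2 1.42.0, limma 3.58.1, other scalings and filters, the replicate block and left-out libraries.

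Members and lists were chosen with earlier results of these data known. Named by rule were the domain genes, Plagl1, tested neighbours, called and lowest-p genes of the pathway lists, and those most like H19 and Igf2, of which 1 is not reported here. Igf2r, Ctcf, Dnmt1, Ezh2, Mir483 and all untested genes outside the domain list were named after their values were seen. RefSeq (GRCm38.p6) gave gene order, matched by gene ID, and exon lengths come from GENCODE M21; no coordinates were converted.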

Additional observations from a re-analysis of the deposited data

Results flagged for a closer look

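In 19 sets of 4 values (each domain gene in each group, without H19 in the controls, where all were 0), 1 set had a sample far from the others: Slc22a18 in control replicate 5, at 0.0327 CPM, beside 0 in the other controls. The gap fills the whole range of the group and is that of 1 read. Chance alone marks about 5% of sets of normally distributed values. That rate does not apply to this set, because 1 read beside 0 in the other libraries is always marked by the rule.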

How the results depend on the processing

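H19 was the 1 domain gene called in each of 16 alternative fits (adjusted p 1.49e-12 to 5.02e-05), and Lsp1, Igf2bp2, Ptgfrn, Des and Col1a1 also passed in all 16. In the fits with a filter, H19, Lsp1, Ptgfrn and Des were tested only because of their Zac1 libraries, so passing there lends no support. With the replicate block, calls over all genes were 512 higher and 116 lower and held all 313 of the fit without it, IGF axis calls were 2 (Insr added, adjusted p 0.047) and protein partner calls 4 (Ccnd1, adjusted p 0.0127, and Cdkn1a, adjusted p 0.0264, among those added). Same-numbered libraries correlated at 0.5, 0.0774, 0.333 and 0.555 (numbers 1, 2, 3 and 5, over 12219 genes). Libraries of unlike number correlated at -0.521 to 0.203. In both groups numbers 1, 3 and 5 correlated best with their own number, and number 2 did not. As number 2 was under 0.1, the numbers were not taken to pair the samples. DESeq2 called 8 genes lower. Protein partner calls were 2 with library totals, DESeq2, limma-voom and no filter on low counts, and neighbour calls 2 without the filter (Tnni2 added). Leaving out 1 library gave 1 to 5 genes lower and 1 to 2 protein partners. No gene whose sign turned was called. With library totals, which moved the median of all genes from -0.00898 to 0.00941 (log2), Igf2 was at 0.00439, Kcnq1ot1 at 0.00602 and Ctsd at 0.00178. Without both libraries numbered 5, Igf2 was at 0.0206, Kcnq1ot1 at 0.0197, Mrpl23 at -0.000594, Tnfrsf22 at -0.144 and Tnfrsf23 at -0.00531, while Kcnq1, at 0.156 with all libraries, was at 0.561. Leaving out 1 library gave ranges of -0.0358 to 0.0247 for Igf2, -0.0449 to 0.0386 for Kcnq1ot1, -0.0315 to 0.443 for Kcnq1, -0.0507 to 0.00582 for Ctsd, -0.0112 to 0.0255 for Mrpl23, -0.0212 to 0.109 for Trpm5, -0.145 to 0.0964 for Tnfrsf22, -0.0253 to 0.0825 for Tnfrsf23, -0.116 to 0.0472 for Tnfrsf26 and -0.0335 to 0.0649 for Nadsyn1. The cause was not tested. The stretch from Ctsd to Dhcr7 and its alternatives were chosen after seeing the data. Depth limits Cdkn1c, Kcnq1, Phlda2 and Slc22a18, with at most 32 counts in a library.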
